A study of Mus musculus with 32 samples.

Results

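The genes Slc2a1, Slc2a2, Slc2a4, Hk1, Hk2, Insr, Irs1, Irs2 and Akt2 cover the path from insulin at the cell surface to glucose inside the cell. They were chosen by name for these functions, with earlier results of these data known. They are 9 of the 54532 genes in the deposited table, each with 1 row. RNA was sequenced from liver, from brown fat (BAT), which burns fuel for heat, and from white fat under the skin (inguinal, iWAT) and around the epididymis (eWAT) of wild-type C57/Bl6j mice. All groups ate a 60% high-fat diet for 12 weeks, so none of the comparisons is with lean mice. Treatment was with vehicle or with auranofin, a gold-containing drug that blocks thioredoxin reductase, at 1 mg/kg 3 times a week over a further 4 weeks. There were 4 libraries per treatment in every tissue, 32 in all.

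Glucose crosses the cell membrane through carriers of the SLC2 family and is then trapped by phosphorylation, which hexokinases carry out. In adipocytes insulin binds its receptor (Insr), the receptor phosphorylates the adaptors Irs1 and Irs2, these recruit phosphoinositide 3-kinase, and the kinase Akt2 then drives vesicles holding the carrier GLUT4 (Slc2a4) to the cell surface. Hepatocytes instead carry glucose in both directions through GLUT2 (Slc2a2), while GLUT1 (Slc2a1) serves basal uptake in most cell types.

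The levels described below include a gene read almost only in liver (Slc2a2) and one read almost only in fat (Hk2). They also include a pair of adaptors read in all 4 tissues (Irs2, and Irs1 at low levels). The bases before the start of these 4 genes are printed to set them side by side. RefSeq promoter windows on GRCm38.p6 were matched for 7 of the 9 genes (not for Slc2a4 and Insr). The 250 bases before the start in the window were kept of each. For Slc2a2 and Hk2 that start meets the start of the gene in the deposited table. For Irs1 and Irs2 it lies upstream of the deposited starts at 82291416 and 11008458. The stretches are chr3:28697653-28697902 on the plus strand for Slc2a2, chr6:82774455-82774704 on the minus strand for Hk2, chr1:82291440-82291689 on the minus strand for Irs1 and chr8:11008930-11009179 on the minus strand for Irs2, each written 5′ to 3′ on the gene's strand. Capitals mark 3 motifs searched on both strands: CACGTG (the E-box core), GGGCGG or its complement CCGCCC (the GC box) and CCAAT or its complement ATTGG (the CCAAT box).
Slc2a2: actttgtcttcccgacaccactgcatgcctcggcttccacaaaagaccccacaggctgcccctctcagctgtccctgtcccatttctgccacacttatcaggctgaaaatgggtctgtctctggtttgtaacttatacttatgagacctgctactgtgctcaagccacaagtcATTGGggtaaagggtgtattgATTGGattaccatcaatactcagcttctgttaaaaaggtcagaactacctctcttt
Hk2: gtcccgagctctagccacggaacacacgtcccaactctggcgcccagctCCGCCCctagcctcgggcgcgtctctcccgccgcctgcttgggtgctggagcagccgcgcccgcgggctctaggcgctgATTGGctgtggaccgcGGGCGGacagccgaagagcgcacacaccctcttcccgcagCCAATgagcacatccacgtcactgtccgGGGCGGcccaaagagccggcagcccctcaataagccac
Irs1: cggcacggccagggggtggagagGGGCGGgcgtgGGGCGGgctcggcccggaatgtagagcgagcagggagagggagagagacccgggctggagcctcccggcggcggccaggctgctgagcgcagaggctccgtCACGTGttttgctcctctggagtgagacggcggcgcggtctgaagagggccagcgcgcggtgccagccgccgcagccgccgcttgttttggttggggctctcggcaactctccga
Irs2: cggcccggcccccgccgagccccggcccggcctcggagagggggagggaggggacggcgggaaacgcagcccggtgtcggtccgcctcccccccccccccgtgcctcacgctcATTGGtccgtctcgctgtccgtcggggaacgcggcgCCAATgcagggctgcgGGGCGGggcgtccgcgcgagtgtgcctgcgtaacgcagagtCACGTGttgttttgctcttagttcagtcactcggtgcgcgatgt
The Slc2a2 stretch held 2 CpG dinucleotides, and 29.0% of the 32851 mouse windows held at most that many. The Hk2 stretch held 25 CpG (90.4% of windows at most that many), Irs1 28 (93.2%) and Irs2 34 (97.03%). Among the matched windows not printed, those of Hk1 held 1 and 14 CpG, that of Slc2a1 13 and those of Akt2 0 to 10. CACGTG occurred once each before Irs1 and Irs2 and in 6.02% of all windows. GGGCGG or its complement occurred 3 times before Hk2, 2 times before Irs1 and 1 time before Irs2, and in 32.7% of windows. CCAAT or its complement occurred 2 times before each of Slc2a2, Hk2 and Irs2, and in 33.8% of windows. These matches describe the printed letters only, and no binding or methylation was measured.

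Levels are given as FPKM, fragments per unit of gene length and of library size on the authors' scale, so that genes of different length can be compared. Whole reads rebuilt from the table numbered 13606756 to 19205640 per library. The library size behind the authors' values was not this read total. It was 2.40e+07 for 17036845 reads in eWAT vehicle library 1 and 1.09e+07 for 15241031 in liver vehicle library 4. In iWAT it was 1.86e+07 for 17706466 reads in vehicle library 1. In the iWAT auranofin libraries it was 2.29e+07 for 17414245 reads in library 1 and 1.88e+07 for 18436456 in library 2. Some libraries stood apart from their group. The summed level of 12 white adipocyte markers was 4456 FPKM in eWAT vehicle library 1 and 6772 in library 2, against 7560 and 8358 in libraries 3 and 4, and the sum of 10 macrophage markers ran the other way, at 4118 and 3503 against 1815 and 1834. In iWAT auranofin library 2 the adipocyte sum was 17605, above the 10431 to 11408 of its 3 companions and closer to the vehicle libraries (14814 to 17121). Skeletal muscle markers summed to 1644 and 930 FPKM in the iWAT libraries numbered 4 of each group, against at most 71.3 in the other iWAT libraries, and to 760, 2980 and 1264 in BAT vehicle library 4 and auranofin libraries 2 and 4. In bulk tissue, fewer cells of a type and less RNA per cell cannot be told apart. Values are given in the order of the libraries 1 to 4, and means carry the SD with n = 4. Differences are on the log2(FPKM + 1) scale, which understates those of low genes, and were tested with limma over all genes (Benjamini-Hochberg adjusted p, threshold 0.05). The labels do not say whether the libraries came from separate animals, so p-values measure the spread between these libraries.

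The tissues differed far more in these genes than the treatments did. Between tissues of vehicle mice, 40 differences passed, over 9 genes in 6 pairs of tissues. All 9 genes passed between iWAT and liver (69.5% of the 14339 genes tested did), 8 between eWAT and liver (71.9%) and 8 between BAT and liver (63.1%). Among the fat depots, 3 passed between iWAT and BAT (50.1%), 6 between eWAT and BAT (53%), and 6 between the white depots iWAT and eWAT (46.2%). The members' counts lie below the background share between iWAT and BAT and above it in the other pairs, and are read here gene by gene. In auranofin mice 1 of the 9, Hk1, passed between iWAT and eWAT, where 10.6% of all genes did, and 5 passed between iWAT and BAT (47.5%; also 5, with 50% of all genes, on the TPM scale in vehicle mice). Between auranofin and vehicle, 7 of the 9 genes were expressed highly enough to be tested in each tissue (a mean of 0.5 FPKM or more), and none of these differences passed with limma, nor with voom on the rebuilt reads. At an unadjusted p under 0.05 there were 1 in iWAT (Hk1), 1 in eWAT (Slc2a4), 0 in liver and 3 in BAT (Slc2a1, Slc2a4 and Hk1). Over all genes 0% passed in iWAT (smallest adjusted p = 0.204), 0% in eWAT (0.429), 0% in liver (0.0824) and 0.023% in BAT. Over all genes, at the same unadjusted threshold, 1207 genes lay higher and 1688 lower in iWAT, of 13164 tested. These counts were 736 and 849 of 13847 for eWAT, 328 and 465 of 13122 for liver, and 609 and 850 of 13067 for BAT. The members' unadjusted counts, of 7 tested in each tissue, lay below these shares in iWAT and liver and above them in eWAT and BAT.

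**Figure D1:**
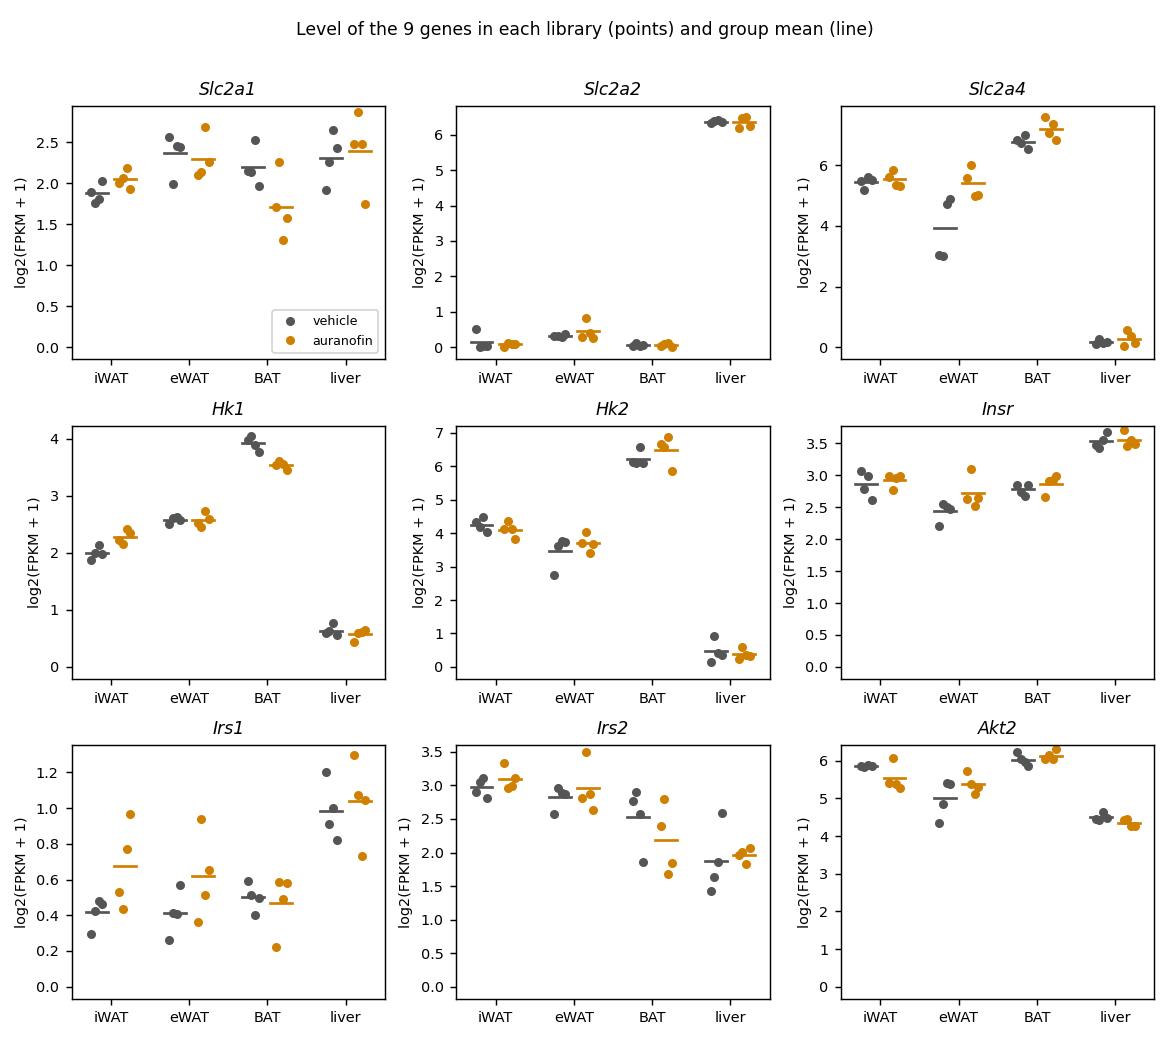
Level of each gene on the log2(FPKM + 1) scale (vertical axes, each with its own range) in the 4 tissues (horizontal axis): points are libraries, grey for vehicle and orange for auranofin, and lines are means of 4. Slc2a2 stands above 6 in liver and below 1 in fat, Slc2a4 and Hk2 have the reverse order, and Irs2, Insr and Akt2 are present in all 4 tissues.

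Slc2a4, which encodes the insulin-responsive carrier GLUT4 (ENSMUSG00000018566, chromosome 11, 69942539 to 69948188 on mm10), was highest in BAT. The vehicle libraries of BAT had 114, 107, 128 and 91.8 FPKM, those of iWAT 43.7, 35.4, 48.3 and 44.9, those of eWAT 7.28, 7.09, 25.7 and 28.6, and those of liver 0.0650, 0.201, 0.0936 and 0.131. No library of one tissue reached the range of the next, and all 6 differences between tissues passed, from 1.33 (SE 0.34, adjusted p = 0.00427) between BAT and iWAT to 6.62 (SE 0.34, adjusted p = 6.03e-11) between BAT and liver, where 3 to 8 reads fell on the gene per vehicle library. The 1.53 (SE 0.34, adjusted p = 0.00205) by which iWAT exceeded eWAT was 0.13 (adjusted p = 0.800) between the same depots in auranofin mice.

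In eWAT the auranofin libraries had 46.7, 63.8, 31.1 and 31.7 FPKM of Slc2a4. All 4 lay above all 4 vehicle libraries. It was the only one of the 7 tested members whose groups did not overlap there, as did 6.95% of all genes. The difference of 1.48 (SE 0.48) did not pass (adjusted p = 0.429). Vehicle libraries 1 and 2 lay at about 7 FPKM and their companions near the lower auranofin libraries. Leaving both out gave 0.59 (adjusted p = 1.00), while 1 fit of all 32 libraries, which shares the spread of all tissues, gave the same 1.48 with adjusted p = 0.00871 and passed 9.24% of all genes. Set against the adipocyte markers of the same library, Slc2a4 was 1.63, 1.05, 3.40 and 3.42 FPKM per 1000 FPKM of the 12 markers with vehicle and 3.70, 4.49, 4.05 and 3.93 with auranofin. These ratios did not overlap either, but the gap between vehicle libraries 3 and 4 and the lowest auranofin library was small. Per 1000 FPKM of the single marker Adipoq (adiponectin) the groups overlapped, with 12.2, 6.63, 18.4 and 18.2 against 15.9, 26.8, 22.8 and 18.1. Per 1000 FPKM of the single marker Plin1 they did not, with 65.6, 48.0, 93.4 and 98.9 against 112, 168, 126 and 120. The ratios to markers, here and for the other depots and Akt2, were formed after the values were seen and were not tested. The part of adipocyte and macrophage content in the difference was not tested.

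**Figure D2:**
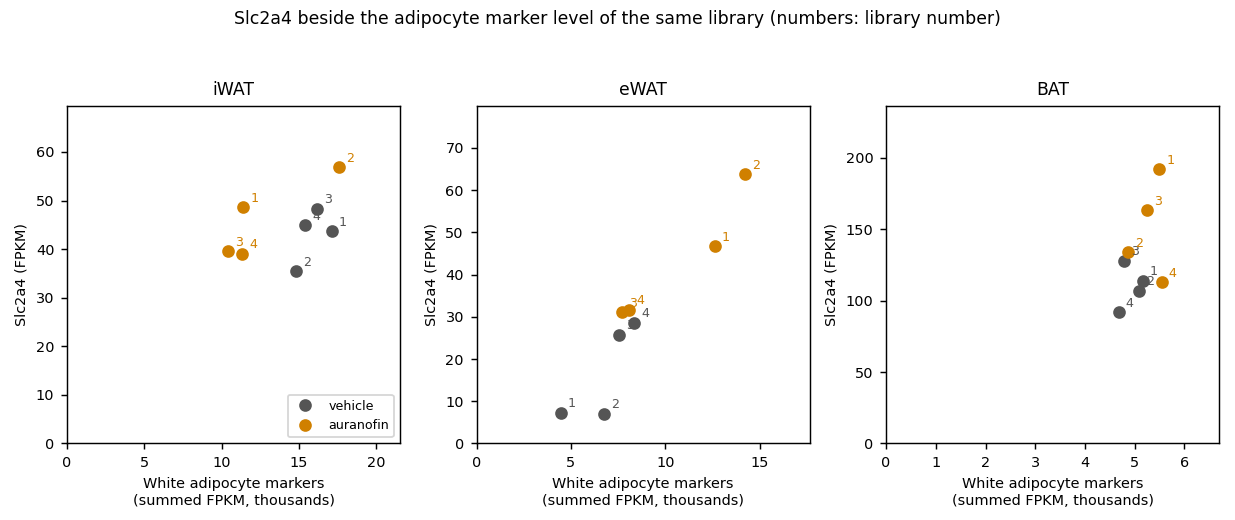
Slc2a4 in FPKM (vertical axes) against the summed FPKM of 12 white adipocyte markers divided by 1000 (horizontal axes) in the fat libraries, grey for vehicle and orange for auranofin, with the library number beside each point. In eWAT the vehicle libraries 1 and 2 lie at about 7 FPKM of Slc2a4 with marker sums of 4456 and 6772, and vehicle libraries 3 and 4 lie beside auranofin libraries 3 and 4.

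In BAT, Slc2a4 had 192, 134, 163 and 113 FPKM with auranofin. All 4 were above the vehicle mean of 110 ± 15.0 (SD, n = 4), but library 4 overlapped the vehicle range, and the difference of 0.43 (SE 0.18, 95% interval 0.03 to 0.83) did not pass (adjusted p = 0.424). Skeletal muscle also expresses Slc2a4, and the muscle marker sums of auranofin libraries 1 and 3 were 53.2 and 50.8 FPKM, beside the 2980 and 1264 of libraries 2 and 4. The part of muscle RNA in these values was not tested. In iWAT the auranofin libraries had 48.6, 56.9, 39.5 and 39.1 FPKM against the vehicle values above (difference 0.09, SE 0.16, adjusted p = 0.750), and the highest value was that of library 2, which stood apart. Without it the difference was -0.02, and without vehicle library 2 it was -0.0037. Per 1000 FPKM of adipocyte markers iWAT had 2.39 to 2.99 with vehicle and 3.23 to 4.26 with auranofin. The auranofin change was 1.40 larger in eWAT than in iWAT (SE 0.54, adjusted p = 0.177), a difference that did not pass. In the liver libraries of auranofin mice the gene had 0.0252 to 0.484 FPKM (1 to 21 reads).

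Slc2a1, the basal carrier GLUT1 (ENSMUSG00000028645, chromosome 4, 119108711 to 119137983), was far lower than Slc2a4 in fat and differed little between tissues. Vehicle libraries of iWAT had 2.73, 2.39, 2.51 and 3.10 FPKM, those of eWAT 4.93, 2.99, 4.49 and 4.43, those of liver 2.79, 3.79, 5.27 and 4.38, and those of BAT 3.44, 3.40, 4.78 and 2.90. iWAT was lower than eWAT (-0.49, SE 0.16, adjusted p = 0.0218) and lower than liver (-0.44, SE 0.16, adjusted p = 0.0241), and the other 4 differences did not pass. The first call was lost without iWAT vehicle library 2 (adjusted p = 0.0580) or eWAT vehicle library 1 (0.0676), and the second without iWAT vehicle library 2 (0.0616) or 3 (0.0531) or liver vehicle library 3 (0.0905) or 4 (0.0618). The second was also lost with quantile normalisation (-0.33, adjusted p = 0.0708) and on the TPM scale (0.17, adjusted p = 0.444), and both were lost in auranofin mice (-0.25, adjusted p = 0.558, and -0.35, adjusted p = 0.181). Slc2a1 in eWAT exceeded that in BAT by 0.95 (adjusted p = 0.000491) and that in liver by 1.16 (adjusted p = 5.32e-05) on the TPM scale. In auranofin mice BAT was lower than eWAT by 0.59 (adjusted p = 0.0374) and lower than liver by 0.68 (adjusted p = 0.0146), and with quality weights iWAT minus BAT was -0.37 in vehicle mice (adjusted p = 0.0302).

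With auranofin, Slc2a1 had 2.26, 3.78, 1.47 and 1.99 FPKM in BAT, where library 2 lay within the vehicle range and the other 3 below it. The difference of -0.48 (SE 0.20, 95% interval -0.94 to -0.03) did not pass (adjusted p = 0.431). Since Slc2a4 lay on the other side of 0 in BAT, the ratio of Slc2a4 to Slc2a1 within a library, which does not depend on how libraries are scaled, was 26.8 to 33.1 with vehicle and 35.5 to 111 with auranofin. This ratio was formed after the values were seen and was not tested. In iWAT the auranofin libraries had 3.03, 3.18, 3.57 and 2.80 FPKM (difference 0.17, SE 0.10, adjusted p = 0.299), in eWAT 3.31 to 5.45 (-0.07, SE 0.18) and in liver 2.35 to 6.31 (0.08, SE 0.24). The iWAT difference passed with quality weights (adjusted p = 0.0444, when 46.3% of all genes passed). The change in iWAT exceeded that in BAT by 0.65 (SE 0.23, adjusted p = 0.139), which did not pass. Without BAT auranofin library 2 it was 0.84 (adjusted p = 0.0343, when 2.49% of all genes passed). With quality weights this difference passed as well (adjusted p = 0.00932, 33% of all genes).

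Slc2a2, the carrier GLUT2 of hepatocytes (ENSMUSG00000027690, chromosome 3, 28697903 to 28731359), was a liver transcript in these libraries. The vehicle livers had 79.7, 82.4, 84.7 and 80.4 FPKM and auranofin livers 72.2, 87.6, 89.2 and 75.5. The vehicle values lay close together and fell inside the auranofin range, and the difference of -0.02 (SE 0.09, 95% interval -0.21 to 0.18) did not pass (adjusted p = 0.980). Among Slc2a1, Slc2a2 and Slc2a4 together it made up 95.2% ± 1.07 (SD, n = 4) of the summed FPKM in vehicle livers, while Slc2a4 made up 96.8% ± 0.282 in BAT, 93.9% ± 0.773 in iWAT and 74.4% ± 13.2 in eWAT.

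In fat Slc2a2 was too low to test for a treatment effect. BAT libraries had 0 to 7 reads and iWAT libraries 0 to 9, except for iWAT vehicle library 1 with 45 reads (0.420 FPKM), a library that also held 217 FPKM of Alb (albumin), a hepatocyte gene. eWAT libraries had 23 to 90 reads, and the highest, auranofin library 2 with 0.783 FPKM, held 286 FPKM of Alb. The other eWAT libraries lay between 0.186 and 0.321 FPKM with Alb anywhere from 2.43 to 113 FPKM. The part of hepatocyte RNA in the fat values was not tested. In vehicle mice eWAT exceeded BAT by 0.27 (SE 0.10, adjusted p = 0.0295), a call lost without eWAT vehicle library 4 (0.0620) or BAT vehicle library 1 (0.0598), 3 (0.0648) or 4 (0.0513), or with quantile normalisation (0.12, adjusted p = 0.323). Slc2a2 in iWAT minus eWAT was -0.18 (adjusted p = 0.154) and passed without iWAT vehicle library 1 (-0.30, adjusted p = 0.00337), on the TPM scale (-0.65, adjusted p = 0.00943), with a pseudocount of 0.1 (-1.04, adjusted p = 0.0349), with quality weights (-0.21, adjusted p = 0.0428) and with voom (-2.75, adjusted p = 0.00667). At most 27 reads over the 4 libraries of a group fell on the overlapping antisense gene 1700112D23Rik. The kit did not keep strand, so reads in shared exons cannot be assigned.

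Hk2, the hexokinase abundant in insulin-responsive tissue (ENSMUSG00000000628, chromosome 6, 82725025 to 82774454), followed the order of Slc2a4. Vehicle libraries had 68.4, 68.3, 95.1 and 67.3 FPKM in BAT, 19.0, 17.0, 21.2 and 15.4 in iWAT, 5.71, 11.4, 12.6 and 12.4 in eWAT and 0.114, 0.879, 0.341 and 0.291 in liver. All 6 differences between tissues passed, from 0.78 (SE 0.22, adjusted p = 0.00828) between iWAT and eWAT to 5.76 (SE 0.22, adjusted p = 9.24e-13) between BAT and liver. The smallest of them was 0.84 with a pseudocount of 0.1 (adjusted p = 0.0653), 0.39 on the TPM scale (adjusted p = 0.181) and 0.41 in auranofin mice (adjusted p = 0.210).

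Hk1, the broadly expressed hexokinase that binds mitochondria (ENSMUSG00000037012, chromosome 10, 62268855 to 62379908), had the 2 white depots in the opposite order. Vehicle libraries had 14.8, 15.6, 13.8 and 12.5 FPKM in BAT, 4.70, 5.08, 5.14 and 4.99 in eWAT, 2.64, 2.97, 3.38 and 2.96 in iWAT and 0.512, 0.543, 0.706 and 0.472 in liver. The ranges of the 4 tissues did not overlap and all 6 differences passed, with eWAT above iWAT by 0.59 (SE 0.08, adjusted p = 6.84e-05). Hk2 therefore exceeded Hk1 by 5.21 to 7.20 times in iWAT, 4.39 to 6.87 times in BAT and 1.21 to 2.50 times in eWAT of vehicle mice. In vehicle livers Hk1 had at most 0.706 FPKM and Hk2 at most 0.879.

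Hk1 was the member whose auranofin and vehicle libraries separated in 2 depots, in opposite directions. In BAT the auranofin libraries had 10.6, 11.2, 10.7 and 9.97 FPKM, all below all 4 vehicle libraries (10.6 ± 0.522 against 14.2 ± 1.30, SD, n = 4 each), and it was the only one of 7 tested members without overlap there (5.33% of all genes). The difference of -0.38 (SE 0.09) did not pass (adjusted p = 0.220). Leaving out single libraries kept it between -0.43 and -0.34 with adjusted p from 0.0868 to 0.521, and 1 fit of all 32 libraries gave adjusted p = 0.0146 (0.735% of all genes passed). In iWAT the auranofin libraries had 3.68, 3.48, 4.32 and 4.06 FPKM, all above the vehicle libraries, again the only tested member without overlap (5.18% of all genes). The difference of 0.29 (SE 0.09) did not pass (adjusted p = 0.204). Without auranofin library 2 it was 0.33 with adjusted p = 0.0234, when 36.4% of all genes passed, in the fit of all 32 libraries adjusted p was 0.0432 (5.48%), and with the trend of changes on gene length removed it was 0.20 (adjusted p = 0.305). eWAT (4.75, 4.49, 5.66 and 5.06 FPKM; difference 0.00051, SE 0.11) and liver (0.360 to 0.558 FPKM; -0.07, SE 0.10) overlapped with vehicle. In liver no member had groups without overlap (3.72% of all genes).

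The change of Hk1 in iWAT exceeded that in BAT by 0.67 (SE 0.12, 95% interval 0.41 to 0.93), with adjusted p = 0.0650, where 0.0224% of all genes passed. It passed with quantile normalisation (0.66, adjusted p = 0.0411, 0.112% of all genes) and with libraries weighted by quality (0.78, adjusted p = 0.000755, 33% of all genes). The Hk1 difference also passed without iWAT auranofin library 2 (0.71, adjusted p = 0.00139, 27.4% of all genes) and without BAT auranofin library 2 (0.70, adjusted p = 0.0167, 2.49%). The change in eWAT was -0.29 relative to that in iWAT (SE 0.13, adjusted p = 0.197) and passed with quality weights (adjusted p = 0.0124, 29.9% of all genes). Marker sums of other cell types also differed, in some lists and depots in the direction of Hk1 and in others not. In BAT the 10 macrophage markers summed to 188 to 365 FPKM with vehicle and 99.4 to 216 with auranofin, and 9 stromal markers to 172 to 295 against 91.7 to 181. In iWAT 8 Schwann cell markers summed to 9.77 to 20.4 FPKM with vehicle, to 46.9, 62.9 and 140 in auranofin libraries 1, 3 and 4 and to 13.1 in library 2. The iWAT stromal sum was 1181 to 1431 with vehicle and 844 to 1220 with auranofin, and the macrophage sum 421 to 662 and 404 to 651. In eWAT, where Hk1 differed by 0.00051, both medians were lower with auranofin (macrophage 2669 against 2010, stromal 1063 against 726). Schwann cell sums in BAT overlapped (11.7 to 23.5 with vehicle, 11.1 to 22.8 with auranofin). The part of these cell types in the Hk1 values was not tested.

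**Figure D3:**
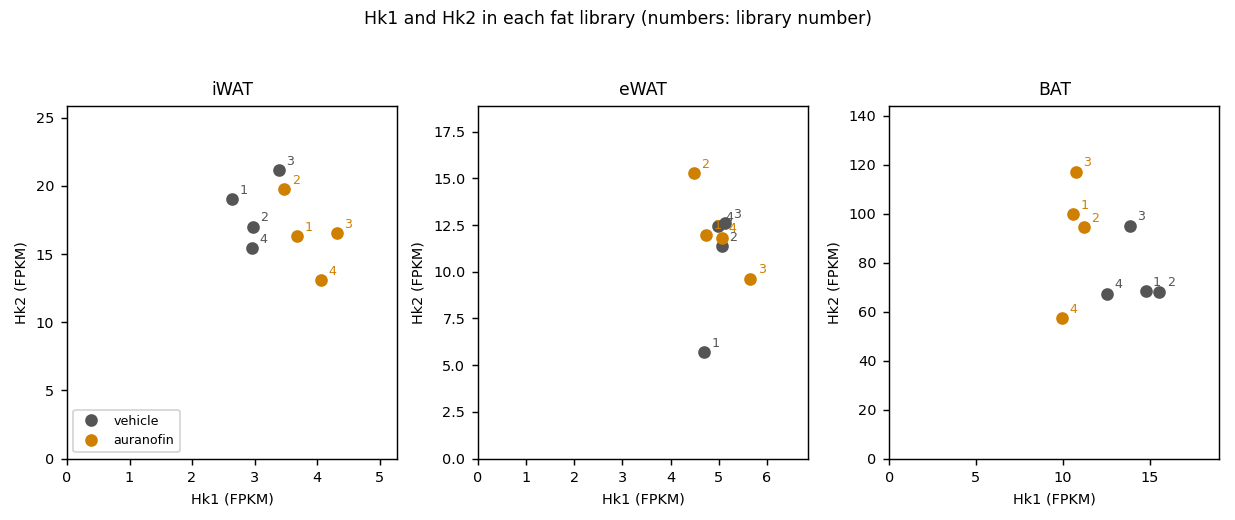
Hk2 against Hk1, both in FPKM, in each fat library (grey for vehicle, orange for auranofin, with the library number beside each point). The auranofin libraries lie to the right of the vehicle libraries in iWAT (3.48 to 4.32 against 2.64 to 3.38 FPKM of Hk1) and to the left in BAT (9.97 to 11.2 against 12.5 to 15.6), while the groups overlap in Hk2.

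For Hk2 the auranofin libraries had 99.9, 94.6, 117 and 57.4 FPKM in BAT, 16.3, 19.8, 16.5 and 13.1 in iWAT and 12.0, 15.3, 9.63 and 11.8 in eWAT. Each group overlapped with vehicle, and the differences were 0.27 (SE 0.22), -0.14 (SE 0.14) and 0.23 (SE 0.25), with adjusted p from 0.542 to 0.669. The iWAT value turned to 0.13 on the TPM scale and to 0.02 with quantile normalisation. The ratio of Hk2 to Hk1, formed after the values were seen and not tested, was 5.76 to 10.9 with auranofin in BAT and 3.22 to 5.69 in iWAT. Both overlapped the vehicle ranges given above.

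Insr, the insulin receptor (ENSMUSG00000005534, chromosome 8, 3122061 to 3279617), was highest in liver. Vehicle libraries had 10.2, 9.80, 10.8 and 11.9 FPKM in liver, 7.39, 5.93, 6.97 and 5.10 in iWAT, 6.21, 5.69, 5.42 and 6.18 in BAT and 3.63, 4.88, 4.66 and 4.58 in eWAT. Liver exceeded each fat depot by 0.67 to 1.10 (SE 0.11 each). eWAT was lower than iWAT (by 0.43, SE 0.11, adjusted p = 0.00486) and lower than BAT (by 0.34, SE 0.11, adjusted p = 0.0149, or 0.0519 without eWAT vehicle library 1). Both calls were lost in auranofin mice (iWAT minus eWAT 0.21, adjusted p = 0.317; eWAT minus BAT -0.15, adjusted p = 0.308). The difference between iWAT and BAT did not pass (0.09, 95% interval -0.15 to 0.32). With values rescaled to a common total (TPM), which moved the median of all genes by -0.33 to 0.93 between tissues, eWAT exceeded BAT by 0.38 (adjusted p = 0.00525), iWAT exceeded BAT by 0.45 (adjusted p = 0.00263), and the calls of iWAT against eWAT (0.067, adjusted p = 0.629), iWAT against liver (0.0090, adjusted p = 0.949) and eWAT against liver (-0.058, adjusted p = 0.628) were lost. Relative to that median all 40 called differences kept their sign. The rescaling multiplies all genes of a library by the same factor, so this was nearly fixed in advance. With auranofin the livers ranged from 10.04 to 12.1 FPKM, iWAT from 5.83 to 6.97, eWAT from 4.73 to 7.53 and BAT from 5.31 to 6.95, and the differences from vehicle lay between 0.01 and 0.28 with adjusted p from 0.432 to 0.984. The 4 eWAT libraries were all above the vehicle mean of 4.44 ± 0.554 (SD, n = 4).

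Irs2, an adaptor of the receptor (ENSMUSG00000038894, chromosome 8, 10984681 to 11008458), exceeded Irs1 in every tissue and had the opposite order between liver and fat. Vehicle libraries had 6.45, 7.29, 7.65 and 6.04 FPKM of Irs2 in iWAT, 4.93, 6.80, 6.39 and 6.28 in eWAT, 5.83, 6.47, 4.95 and 2.61 in BAT and 1.69, 2.12, 2.61 and 5.03 in liver. Liver was lower than iWAT (by 1.09, SE 0.24, adjusted p = 0.000677), eWAT (by 0.94, SE 0.24, adjusted p = 0.00209) and BAT (by 0.65, SE 0.24, adjusted p = 0.0256), and the differences between fat depots did not pass (iWAT minus BAT 0.44, adjusted p = 0.131; eWAT minus BAT 0.30, adjusted p = 0.313). In auranofin mice BAT was lower than iWAT (by 0.92, adjusted p = 0.00266) and lower than eWAT (by 0.77, adjusted p = 0.00758). On the TPM scale vehicle BAT was also lower than both, by 0.85 (adjusted p = 0.0152) and 1.10 (adjusted p = 0.00174). The call between BAT and liver was lost on leaving out any 1 of 6 libraries (vehicle libraries 1, 2 and 3 of either tissue, adjusted p from 0.0504 to 0.0929), with no filter on low values (0.0515) and in auranofin mice, where BAT exceeded liver by 0.21 (adjusted p = 0.416).

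Irs1 (ENSMUSG00000055980, chromosome 1, 82233101 to 82291416) was low throughout, with 18 to 195 reads per fat library and 64 to 158 per liver library. Vehicle libraries had 1.30, 0.880, 0.997 and 0.770 FPKM in liver, 0.229 to 0.393 in iWAT, 0.200 to 0.485 in eWAT and 0.320 to 0.508 in BAT. All 4 vehicle livers were above all vehicle fat libraries, and liver exceeded the depots by 0.48 to 0.57 (SE 0.10 each). In auranofin mice iWAT minus liver was -0.36 (adjusted p = 0.0538), and on the TPM scale eWAT minus liver was -0.22 (adjusted p = 0.215) in vehicle mice, so that neither call held there. Irs2 was 15.99 to 28.2 times Irs1 in iWAT, 13.0 to 24.6 times in eWAT, 6.33 to 15.5 times in BAT and 1.30 to 6.54 times in liver of vehicle mice, ratios likewise formed after the values were seen. Irs3, an adipocyte adaptor of rodents named here for its p-value in eWAT, was 10.4 ± 3.54 FPKM in that depot with vehicle and 19.6 ± 5.30 with auranofin (difference 0.87, SE 0.26, adjusted p = 0.429). Of the summed FPKM of Irs1, Irs2 and Irs3 in vehicle mice, Irs3 made up 75.6% in iWAT, 60.7% in eWAT, 74.4% in BAT and 3.14% in liver. The share of Irs2 was 23.3%, 37.3%, 23.6% and 69.5% in the same order.

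With auranofin, Irs1 in iWAT had 0.444, 0.354, 0.707 and 0.955 FPKM, all above the vehicle mean of 0.336 ± 0.0741 (SD, n = 4), with library 2 inside the vehicle range. In eWAT it had 0.286, 0.920, 0.429 and 0.571, also overlapping. The means in both depots fell under the filter of 0.5 FPKM. With no filter the differences were 0.26 (SE 0.12, adjusted p = 0.404) in iWAT and 0.20 (SE 0.13, adjusted p = 0.652) in eWAT. In liver the difference was 0.05 (SE 0.14), and BAT libraries had 0.168 to 0.502 FPKM. For Irs2 the auranofin libraries ranged from 6.81 to 9.11 FPKM for iWAT, 5.21 to 10.3 for eWAT, 2.55 to 3.20 for liver and 2.20 to 5.97 for BAT. The differences were 0.13, 0.13, 0.09 and -0.34 in the same order, with SE from 0.11 to 0.29, and each group overlapped with vehicle.

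Akt2, the kinase that passes the signal to GLUT4 vesicles in fat (ENSMUSG00000004056, chromosome 7, 27591552 to 27640826), was high in BAT and iWAT. Vehicle libraries had 73.9, 64.7, 61.9 and 57.5 FPKM in BAT, 57.6, 56.5, 58.3 and 57.2 in iWAT, 19.5, 28.1, 41.8 and 41.1 in eWAT and 20.9, 20.4, 23.8 and 21.3 in liver. The difference between iWAT and BAT did not pass in vehicle mice (iWAT minus BAT -0.16, 95% interval -0.55 to 0.23), while in auranofin mice it was -0.60 (adjusted p = 0.00700). The other 5 differences passed. That of 0.51 (SE 0.18, adjusted p = 0.0191) between eWAT and liver was lost without eWAT vehicle library 3 (0.0718) or 4 (0.0700). The 0.86 (adjusted p = 0.00132) by which iWAT exceeded eWAT was 0.15 (adjusted p = 0.649) in auranofin mice and 0.44 (adjusted p = 0.0535) on the TPM scale. The -1.02 (adjusted p = 0.000198) of eWAT minus BAT was -0.22 (adjusted p = 0.283) on the TPM scale.

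The iWAT vehicle libraries lay between 56.5 and 58.3 FPKM of Akt2, while the auranofin libraries had 41.7, 66.7, 41.1 and 37.6. Libraries 1, 3 and 4 lay below all vehicle libraries and library 2, which stood apart in its adipocyte markers, above them. The difference of -0.33 (SE 0.17, adjusted p = 0.277) did not pass. Without library 2 it was -0.51 with adjusted p = 0.00239, when 36.4% of all genes passed, and with libraries weighted by quality it was -0.48 with adjusted p = 0.00261, when 46.3% passed. With quantile normalisation it was -0.0026 (adjusted p = 0.988). On the TPM scale it was -0.05, where the median of all genes moved to 0.24. Akt2 per 1000 FPKM of adipocyte markers was 3.37 to 3.81 with vehicle and 3.32 to 3.94 with auranofin, so that this ratio overlapped. In eWAT the auranofin libraries had 51.8, 41.0, 33.9 and 38.8 FPKM (difference 0.38, SE 0.26, adjusted p = 0.483), and without vehicle libraries 1 and 2 the value was -0.02. In BAT they had 64.6 to 78.3 (0.11, SE 0.11) and in liver 18.2 to 21.0, all below the vehicle mean of 21.6 ± 1.48 (-0.14, SE 0.08, adjusted p = 0.809). The change in eWAT exceeded that in iWAT by 0.71 (SE 0.32, adjusted p = 0.205, where 0% of all genes passed). The change in iWAT minus that in BAT was -0.44 (SE 0.21, adjusted p = 0.217), which did not pass.

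**Figure D4:**
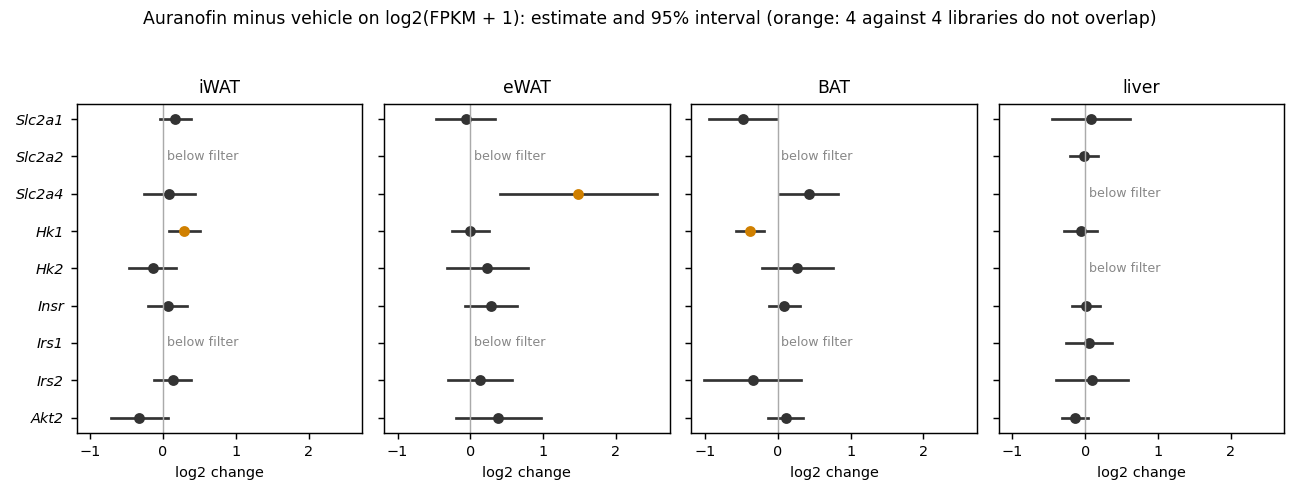
Difference between auranofin and vehicle libraries on the log2(FPKM + 1) scale (horizontal axes) for each gene in each tissue, with limma's 95% interval as a line. Orange points mark the genes whose groups of 4 do not overlap (Hk1 in iWAT and BAT, Slc2a4 in eWAT), and genes under 0.5 FPKM are written as below filter.

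The auranofin changes were also compared between the depots, with 7 of the 9 genes tested in each of 3 pairs, and none passed (0% of all genes did so in each pair with eWAT, and 0.0224% in that of iWAT with BAT). The lowest adjusted p after that of Hk1 was 0.139, for Slc2a1 between iWAT and BAT. For Slc2a4 the eWAT value exceeded the BAT value by 1.06 (SE 0.55, adjusted p = 0.777). Between liver and the mean of the 3 depots all 9 genes were tested, 0% of all genes passed, and the members lay between -0.55 (Slc2a4, SE 0.35) and 0.21 (Slc2a1, SE 0.23).

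Other genes of these paths were followed as 7 lists: 10 further glucose carriers, 7 genes of glucose phosphorylation and release, 21 of glycolysis, 19 adaptors and inhibitors at the receptor, 21 of the PI3K and AKT step, 20 of GLUT4 vesicle traffic and 17 of FOXO, GSK3, glycogen and gluconeogenesis. None of their genes passed between auranofin and vehicle in any tissue. In iWAT 16 of the 19 glycolysis genes tested lay below 0 (median -0.37, against -0.02 over all genes). Gapdh, a glycolytic dehydrogenase, had 299, 295, 257 and 294 FPKM with vehicle and 184, 285, 154 and 169 with auranofin (-0.57, SE 0.20, adjusted p = 0.204). The one auranofin value inside the vehicle range was again that of library 2. In the PI3K and AKT list 15 of 21 lay above 0 there (median 0.13). Without auranofin library 2 Gapdh passed (-0.76, adjusted p = 0.00176).

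In eWAT 15 of 19 glycolysis genes lay above 0 (median 0.10, against 0.00 over all genes), and the largest value among the genes named by their p was that of Pck1, which makes phosphoenolpyruvate for glyceride synthesis in fat. It had 39.3, 59.2, 118 and 212 FPKM with vehicle and 317, 642, 298 and 212 with auranofin (1.93, SE 0.53, adjusted p = 0.429). The groups met at 212, where vehicle library 4 and auranofin library 4 lay side by side. Hk3, a hexokinase of blood and immune cells, had 17.7 ± 7.13 FPKM with vehicle and 9.47 ± 4.32 with auranofin (-0.89, SE 0.38, adjusted p = 0.429), highest in vehicle library 1, which also had the highest macrophage sum. In BAT, Ppp1r3c, a subunit that directs a phosphatase to glycogen, had 23.5, 30.2, 38.6 and 23.2 FPKM with vehicle and 48.0, 52.4, 44.0 and 45.5 with auranofin. These groups did not overlap, and the difference of 0.73 (SE 0.16) did not pass (adjusted p = 0.220). Hk3 lay lower in BAT in all 4 auranofin libraries (0.397 ± 0.0660 against 0.902 ± 0.249 FPKM, adjusted p = 0.256). In liver the smallest p in these lists belonged to Pgam1, a glycolytic mutase, with 58.3, 62.4, 53.5 and 56.2 FPKM against 48.0, 51.2, 45.9 and 41.8 (-0.30, SE 0.08, adjusted p = 0.790), also without overlap.

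The genes whose pattern lay nearest to each member were found by the root mean square difference of log2(FPKM + 1), each gene centred, over the 32 libraries. This is a description, since the 4 tissues set most of it. Slc2a4 and Hk2 shared their nearest gene, Kcnk3, a potassium channel with 63.3 FPKM in BAT, 20.7 in iWAT, 9.91 in eWAT and 0.124 in liver (root mean square difference 0.63 from Slc2a4 and 0.44 from Hk2), and the next were Slc25a4 and Ucp3. For Slc2a2 they were F9 and Proz, which encode coagulation proteins made in liver (0.10 and 0.12), and for Hk1 Adcy3 and Rab6b (0.25 and 0.26). For Akt2 they were Prkaca and Nap1l4 (0.16 each), for Insr Gzf1 and Hectd3, for Irs1 Smg6 and Slc35e1, for Irs2 Ankrd44 and P4ha2, and for Slc2a1 Pxn and Bahd1.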

How the data were processed

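The deposited values are FPKM per gene and library, as the authors computed them, in 1 table of 32 libraries with gene lengths in bases. Per the submitters' processing notes the reads were aligned to mm10 with STAR 2.6.1d and counted with featureCounts 1.5.0-p3, and the authors list DESeq2 1.20.0. Per the labels' protocols the kit did not keep strand. All values came out as whole reads (within 0.1 read) when multiplied back, which gave the depths. Log2(FPKM + 1) was tested with limma 3.58.1 (R 4.3.3, trend on mean level) over genes with a mean of 0.5 FPKM or more in the libraries fitted, with Benjamini-Hochberg adjustment over all of them. Each tissue was fitted alone for auranofin against vehicle, differences of that change were fitted as interactions, and tissues were compared in 1 fit of the 16 vehicle libraries. The code was tested on simulated data.

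All 9 genes are given everywhere. From each pathway list the gene with the smallest p in a tissue could be named, and 2 protein-coding genes of nearest pattern per member. Some list genes that this rule picked are not reported here. Members and lists were chosen with earlier results of these data known. Alternatives were the pseudocount, the filter, TPM and quantile scaling, voom (chosen after seeing the data), quality weights, 1 common fit, a length trend, a replicate block, auranofin libraries for tissue differences, and libraries left out. Opposite-strand genes overlap 7 of the 9 genes, at 1.69 FPKM or less. Of the 54532 gene IDs, 54409 were in GENCODE M21.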

Additional observations from a re-analysis of the deposited data

Results flagged for a closer look

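Of 72 groups of 4 libraries, 3 held a library far from the others, and chance alone gives about 1 in 20. Slc2a2 was 0.420 FPKM in iWAT vehicle library 1 against 0 to 0.0302 in the others, Hk2 was 95.1 FPKM in BAT vehicle library 3 against 67.3 to 68.4, and Akt2 was 66.7 FPKM in iWAT auranofin library 2 against 37.6 to 41.7.

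In 4 pairs of tissues all 4 auranofin libraries lay above the vehicle mean in one tissue and all 4 below it in the other. For Hk1 the change in iWAT minus that in BAT was 0.67 on the log2 scale (limma interaction, adjusted p = 0.0650, not passing) and that in iWAT minus that in liver 0.36. For Akt2 the change in eWAT minus that in liver was 0.52, and that in BAT minus that in liver 0.25. The last 3 differences were not tested as such.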

How the results depend on the processing

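The edgeR and DESeq2 alternatives, planned for a table of counts, were not run on the deposited FPKM, and voom on the rebuilt reads was run in their place. The number of members passing in iWAT went from 0 to 3 with quality weights (46.3% of all genes), 2 without auranofin library 2 (36.4%) and 1 in the fit of all 32 libraries (5.48%), which also gave 1 in eWAT (9.24%) and 1 in BAT (0.735%). For differences of the change it went from 0 to 1 between eWAT and iWAT with quality weights (29.9% of all genes). Between iWAT and BAT it went to 1 with quantile normalisation (0.112% of all genes), 3 with quality weights (33%) and 2 without auranofin library 2 of iWAT (27.4%) or of BAT (2.49%). With quality weights and without iWAT auranofin library 2, these include a member other than Hk1 and Slc2a1. Between tissues the number passing was 1 in auranofin mice against 6 in vehicle mice for iWAT and eWAT. For iWAT and BAT it was 5 in auranofin mice or on the TPM scale against 3. Leaving out single libraries gave 0 to 2 in iWAT, 0 to 2 for iWAT against BAT differences of the change, and between tissues 5 to 7 (iWAT and eWAT), 3 to 3 (iWAT and BAT), 7 to 9 (iWAT and liver), 5 to 6 (eWAT and BAT), 7 to 8 (eWAT and liver) and 6 to 8 (BAT and liver). The causes were not tested. Of the 40 called differences, 14 were not called under some alternative and 3 reversed, all on the TPM scale: Slc2a1 (0.17) and Insr (0.0090) between iWAT and liver, and Insr between eWAT and BAT (0.38). The TPM scale moved the share of called genes that were higher from 53.7% to 16.7% (iWAT against eWAT), 51.4% to 74.8% (iWAT against BAT), 48.5% to 74.4% (iWAT against liver), 52.4% to 87.7% (eWAT against BAT), 47.9% to 83.0% (eWAT against liver) and 50.3% to 67.1% (BAT against liver).

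Uncalled differences that changed sign are given by setting. On the TPM scale, auranofin against vehicle was 0.13 for Hk2 and 0.0049 for G6pc3 in iWAT, -0.15 for Hk1 and -0.011 for Irs2 in eWAT, and -0.032 for Insr and -0.029 for Akt2 in BAT. Tissue differences on it were -0.21 (Irs1) and -0.26 (Irs2) for iWAT against eWAT, 0.030 (Irs1) and 0.21 (Akt2) for iWAT against BAT, 0.24 (Irs1) for eWAT against BAT and 0.21 (Slc2a1) for BAT against liver. Quantile normalisation gave 0.022 for Hk2 in iWAT, -0.0025 for Hk1 in eWAT and 0.039 for Slc2a2 in liver. Quality weights gave -0.0025 for Slc2a4 in iWAT, -0.053 for Hk2, -0.077 for Irs2 and -0.056 for Akt2 in eWAT, and -0.043 for Irs1 between iWAT and eWAT. Without eWAT vehicle libraries 1 and 2 the values were -0.021 (Hk1), -0.053 (Hk2) and -0.020 (Akt2). Insr in iWAT was -0.050 with the length trend removed and -0.045 without the libraries numbered 4, Hk1 in eWAT -4.61e-05 with a pseudocount of 0.1, and Slc2a2 between iWAT and BAT -0.047 with voom. In auranofin mice Slc2a1 was 0.34 and Irs1 0.21 for iWAT against BAT, Irs1 0.15 for eWAT against BAT and Slc2a1 -0.095 for eWAT against liver. Leaving out single libraries spanned 0 for Slc2a4 (-0.021 to 0.16) and Insr (-0.023 to 0.13) in iWAT. It did so for Slc2a1 (-0.20 to 0.00076), Hk1 (-0.052 to 0.041), Hk2 (-0.0098 to 0.33) and Irs2 (-0.046 to 0.24) in eWAT. In liver it did so for Slc2a1 (-0.079 to 0.30), Slc2a2 (-0.064 to 0.036), Insr (-0.037 to 0.062), Irs1 (-0.032 to 0.16) and Irs2 (-0.061 to 0.33). Between tissues it did so for Irs1 in iWAT against eWAT (-0.047 to 0.055), Slc2a2 in iWAT against BAT (-0.027 to 0.14) and Slc2a1 in eWAT against liver (-0.080 to 0.17).

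With the replicate number as a block, 0 members passed in each tissue for auranofin against vehicle, as without it, and adjusted p for Slc2a4 in eWAT was 0.525. Tissue counts under the block were 6, 3, 9, 6, 8 and 8, also as without it. Deviations of same-numbered libraries did not correlate above 0.1 in every pair for any 2 groups, and the numbers were not taken as pairs. This cannot decide whether they share a mouse, since tissues of 1 mouse need not deviate alike, and the labels do not say. The main fit of the tissues took the libraries as independent. Genes with few reads limit what could be seen: Slc2a2 in fat other than eWAT and Slc2a4 in liver rested on 45 reads or fewer per library.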
